A study of Mus musculus with 2 samples.

Results

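The nuclear genes for subunits of the mitochondrial respiratory chain and ATP synthase were followed in single-cell transcriptomes of mouse myeloid-derived suppressor cells, immature myeloid cells that restrain T cells. Members were all genes whose symbol begins with Nduf (followed by a, b, c, s or v and a number), Uqcr, Atp5 or Cox 4 to 8, plus Sdha to Sdhd, and that had at least 50 UMIs (unique molecular identifiers, 1 per counted transcript molecule) over both libraries. These were 79 of the 85 symbols that match, among 32285 genes listed, of which 10397 reached the same minimum. They comprise 36 subunits of complex I, 4 of complex II, 8 of complex III, 14 of complex IV and 17 of complex V. Ndufa4 is counted with complex IV, where its protein resides. Just inside the minimum lay Cox6b2 (67 UMIs in Selinexor and 24 in DMSO) and Cox7a1 (84 and 87). Just outside it lay Cox6a2 (21 and 19) and Cox4i2 (7 and 31). Ndufa4l2 had 0 and 2 UMIs, and Cox7b2, Cox8b and Cox8c had 0 in both.

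The 2 groups were a Selinexor culture, given 50 nM of this inhibitor of the nuclear export receptor exportin 1, and a DMSO culture, given the vehicle. Both were grown with the cytokines IL-6 and GM-CSF, each at 40 ng/mL, were harvested at day 4 and were sorted for live cells carrying CD11b before droplet capture. No mouse strain, age or number of animals is given in the labels. Each group is 1 library, which leaves every difference without a replicate and allows no test between conditions. Intervals below are 95% intervals for counting error only, and every value describes these libraries alone.

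After filtering, 1967 Selinexor cells held 12841480 gene UMIs, with a median of 3984 UMIs per cell, and 1743 DMSO cells held 14222344, with a median of 7788. The libraries shared 0 cell barcodes. Itgam, which encodes CD11b, stood at 412.3 CPM (CPM scales UMIs to the total of gene UMIs) in Selinexor and 305.5 CPM in DMSO. Of the 4 T cell markers, 15 UMIs in Selinexor and 10 in DMSO were counted in all, and of the 4 erythroid markers 3 and 0. The 4 NK cell markers had 84 and 83 UMIs, and the 5 B cell markers 61 and 97. The 4 endothelial or stromal markers had 80 and 258, and the 4 stem or progenitor markers 253 and 178. The 4 eosinophil markers had 476 and 181, with 2 of the markers at 0 in each library. The libraries differed in their mix of myeloid cells. The 5 early neutrophil markers summed to 503.8 CPM in Selinexor and 1265 CPM in DMSO, the 8 monocyte markers to 2481 and 1309 CPM, and the 8 dendritic cell markers to 320.1 and 69.6 CPM. Lower in Selinexor, as most members were, stood the 5 basophil or mast cell markers (1.17 CPM in Selinexor, with 1 marker at 0, and 31.0 CPM in DMSO), the 4 megakaryocyte markers (4.91 and 32.6 CPM), the 9 macrophage markers (355.4 and 431.4 CPM) and the 6 cell cycle genes (858.6 and 1052 CPM). With cells holding a Mki67 or Top2a UMI left out, 1246 Selinexor and 1028 DMSO cells remained. The median log2 ratio of the members, given further on for all cells, then stood at -0.21. The part of these markers, cell cycle genes included, in the member ratios was not tested.

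The respiratory chain passes electrons from NADH (complex I) and succinate (complex II) through ubiquinone to complex III, then through cytochrome c to oxygen at complex IV. Complexes I, III and IV pump protons, and complex V, the ATP synthase, uses the returning protons to make ATP. A few core subunits are encoded by mitochondrial DNA, and all others are encoded in the nucleus and imported. Neutrophils are known to rely mostly on glycolysis and to lose much of their mitochondrial content as they mature, whereas macrophages keep an active respiratory chain.

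Most nuclear-encoded subunits had a slightly lower share of the transcripts in Selinexor cells than in DMSO cells. Summed over all 79 members, the level was 21270 CPM (21190 to 21349) in Selinexor and 24245 CPM (24164 to 24326) in DMSO, a log2 ratio of -0.19 (-0.20 to -0.18) or 0.877-fold. Of the 79 members, 67 had a log2 ratio below 0, while 36.1% of all 10397 measured genes did, and 43.9% of the 3334 genes with at least 1000 UMIs. The median member stood at -0.19 and the median of all measured genes at 0.13, and 74 members lay below that median. The differences were small: 0 members were at least 1.5-fold lower, where 3.88% of all measured genes were, and 1 was at least 1.5-fold higher, where 9.84% of all measured genes were. With TMM or median-of-ratios scaling, 2 library scalings that place the median of all genes at 0.00, the median member stood at -0.33 and 4 members were at least 1.5-fold lower, where 6.22% (TMM) and 6.33% (median-of-ratios) of all genes were. Ratios are log2(CPM + 1) in Selinexor minus the same in DMSO. In sums over cells of a mixed culture, fewer cells of a type and fewer transcripts per cell cannot be told apart, so values within cell states are given further on.

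**Figure D1:**
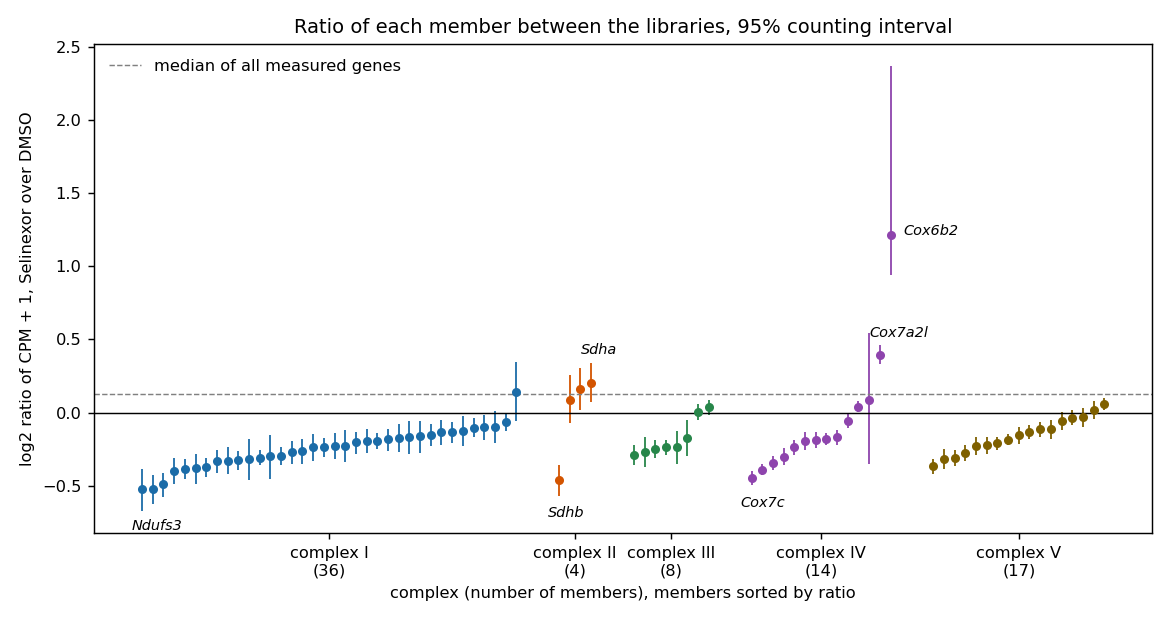
Log2 ratio of CPM + 1, Selinexor over DMSO (vertical axis), for each of the 79 members, grouped by complex and sorted (horizontal axis). Points are the ratios, vertical lines the 95% counting interval of the plain ratio, and the dashed line the median of all measured genes at 0.13. In complex I 35 of 36 members lie below 0, and Cox6b2 of complex IV stands apart at 1.21.

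Many of these genes are known targets of the nuclear respiratory factors NRF1 and GABP (NRF-2), the second of which binds ETS motifs, and they are classically described as regulated together. Promoter windows of 300 bases around the annotated start, from RefSeq (GRCm38.p6), were found for 65 members. Shown are 5 windows: Uqcrc1 and Cox6a1 for the NRF1 core, Ndufs3 and Sdhb as the lowest members of complexes I and II, and Cox7a2l as the single member above 0 in each of the 7 cell clusters compared further on. They are Uqcrc1 at chr9:108936398-108936697 (plus strand), Cox6a1 at chr5:115348909-115349208 (minus strand), Ndufs3 at chr2:90904672-90904971 (minus strand), Sdhb at chr4:140961021-140961320 (plus strand) and Cox7a2l at chr17:83514284-83514583 (minus strand). Each is printed 5′ to 3′ on the strand of its gene, and capitals mark the core of the NRF1 motif and the ETS motif CCGGAAG on either strand.
Uqcrc1: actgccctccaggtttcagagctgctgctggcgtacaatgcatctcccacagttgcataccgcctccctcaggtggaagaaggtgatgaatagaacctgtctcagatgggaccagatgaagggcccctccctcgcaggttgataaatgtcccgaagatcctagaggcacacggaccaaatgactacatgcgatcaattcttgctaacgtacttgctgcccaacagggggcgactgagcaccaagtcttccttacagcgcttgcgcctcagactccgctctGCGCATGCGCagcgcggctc
Cox6a1: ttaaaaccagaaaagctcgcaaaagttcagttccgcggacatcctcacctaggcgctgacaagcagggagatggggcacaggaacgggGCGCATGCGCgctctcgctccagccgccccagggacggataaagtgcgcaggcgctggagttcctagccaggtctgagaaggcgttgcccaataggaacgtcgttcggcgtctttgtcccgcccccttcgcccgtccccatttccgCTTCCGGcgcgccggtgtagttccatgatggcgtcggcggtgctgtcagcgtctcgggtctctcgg
Ndufs3: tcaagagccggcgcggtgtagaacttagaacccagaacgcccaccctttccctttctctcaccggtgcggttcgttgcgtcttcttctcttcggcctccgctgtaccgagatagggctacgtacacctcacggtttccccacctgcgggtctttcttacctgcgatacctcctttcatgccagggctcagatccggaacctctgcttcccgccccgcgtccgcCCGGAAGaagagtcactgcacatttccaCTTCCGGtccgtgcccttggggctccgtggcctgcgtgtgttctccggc
Sdhb: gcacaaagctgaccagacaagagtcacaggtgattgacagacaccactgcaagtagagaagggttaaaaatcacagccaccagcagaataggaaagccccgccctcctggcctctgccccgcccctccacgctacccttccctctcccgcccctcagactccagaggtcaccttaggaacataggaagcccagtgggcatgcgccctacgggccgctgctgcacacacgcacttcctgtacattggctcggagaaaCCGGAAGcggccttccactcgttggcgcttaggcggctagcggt
Cox7a2l: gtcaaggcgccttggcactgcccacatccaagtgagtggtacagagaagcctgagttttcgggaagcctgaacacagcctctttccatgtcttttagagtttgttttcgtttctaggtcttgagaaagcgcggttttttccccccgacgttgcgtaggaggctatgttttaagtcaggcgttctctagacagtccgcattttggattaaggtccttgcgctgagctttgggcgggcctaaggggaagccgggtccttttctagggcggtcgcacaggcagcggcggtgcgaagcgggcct

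Counted from the annotated start (base 1), the NRF1 core begins at base 31 in Uqcrc1 and at base -162 in Cox6a1. ETS motifs begin at -16 in Cox6a1, at -27 and 2 in Ndufs3, and at 7 in Sdhb. The Cox7a2l window holds none of the motifs searched. Its RefSeq start lies 2997 bases inside the gene as GENCODE M21 places it, against 15 to 106 bases between the annotated starts of the other 4, so that window describes the RefSeq start alone. The NRF1 core was present in 5 of 65 members (7.69%), namely Atp5g2, Atp5k, Cox6a1, Ndufa11 and Uqcrc1, and in 1.07% of the 27025 genes with a window. The NRF1 motif with 1 further base beside that core was present in 2 members (3.08%) and 0.688% of all genes. The ETS motif occurred in 17 members (26.2%) and 9.93% of all genes, the YY1 motif AAGATGG in 10 (15.4%) and 7.28%, and the E-box CACGTG in 5 (7.69%) and 8.09%. All were searched on both strands. Members with and without a motif had similar ratios: the median log2 ratio was -0.18 for the 17 members with the ETS motif and -0.22 for the 48 without, and -0.24 for the 5 with the NRF1 core and -0.20 for the 60 without. A match describes letters in a window and is no evidence of binding.

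Complex I, the NADH dehydrogenase, had the lowest summed ratio of the 5 complexes. Its 36 members summed to 6204 CPM in Selinexor and 7363 CPM in DMSO (log2 -0.25, -0.26 to -0.23), and the intervals of 34 lay below 0. The lowest were Ndufs3, a core subunit of the matrix arm, with 659 UMIs in Selinexor and 1054 in DMSO (log2 -0.52, -0.67 to -0.39), and Ndufa8, an accessory subunit, with 1355 and 2160 (-0.52, -0.62 to -0.43). Ndufs3 (mm10 chromosome 2, 90894634 to 90904827, minus strand) shares 64.7% of the 50-base words in its last 400 transcript bases with other annotated genes. Such sharing makes a count uncertain in a library read from the 3′ end of transcripts, and the labels do not state which end was read. The member with the most UMIs, Ndufb1-ps, which the annotation types as a long noncoding RNA despite its subunit name, had 5499 in Selinexor and 7545 in DMSO (-0.31, -0.36 to -0.26), but stood at 0.01 with every cell weighted equally. Ndufs1, the large iron-sulfur subunit, was the 1 member above 0, with 420 UMIs in Selinexor and 421 in DMSO (0.14), and its interval of -0.05 to 0.34 includes 0. It lay below 0 once every cell was weighted equally, once the clusters were given the same mix, and once cells with a Mki67 or Top2a UMI were left out.

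Complex II, succinate dehydrogenase, was split among its 4 subunits. Sdhb, the iron-sulfur subunit (mm10 chromosome 4, 140961203 to 140979193, plus strand), had 1197 UMIs in Selinexor and 1832 in DMSO, a log2 ratio of -0.46 (-0.57 to -0.36). Sdha, the flavoprotein that oxidises succinate (chromosome 13, 74322254 to 74350280, minus strand), had 926 and 889 UMIs, a ratio of 0.20 (0.07 to 0.34), which moved between 0.07 and 0.50 over the other settings. The membrane anchors Sdhc (790 and 782 UMIs, 0.16) and Sdhd (595 and 619, 0.09) lay on the side of Sdha, but both changed sign under other settings, Sdhc with the same mix of clusters and Sdhd under TMM or median-of-ratios scaling and in cells thinned to equal depth. The 4 summed to 273.2 CPM in Selinexor and 289.8 CPM in DMSO (-0.09, -0.15 to -0.02). Sdhb was below 0 in each of the 7 cell clusters compared, between -1.51 and -0.35. Sdha held no single direction there: it had 68 UMIs in Selinexor and 8 in DMSO in the low-UMI cluster 0 (log2 1.77) and ratios between -0.44 and 0.16 in the other 6 clusters.

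Complex III, which passes electrons from ubiquinol to cytochrome c, summed to 2064 CPM in Selinexor and 2285 CPM in DMSO (log2 -0.15, -0.17 to -0.12), with 6 of 8 members below 0. Uqcrb, a small subunit near the quinone site, was lowest, with 3151 UMIs in Selinexor and 4262 in DMSO (-0.29, -0.36 to -0.22). Uqcrq, the most abundant by UMIs, had 5298 and 6915 (-0.24), and stood at -0.06 with every cell weighted equally. Uqcr11 (5620 and 6069 UMIs, 0.04) and Uqcrh (5071 and 5606, 0.00) had intervals that include 0, and both lay below 0 under either other scaling.

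Complex IV, cytochrome c oxidase, summed to 5935 CPM in Selinexor and 6751 CPM in DMSO (log2 -0.19, -0.20 to -0.17), and it held the widest spread of ratios. Of its 14 members 10 lay below 0. The small structural subunits Cox7c (6074 UMIs in Selinexor and 9161 in DMSO, -0.44, -0.49 to -0.40) and Cox8a (8977 and 13029, -0.39, -0.43 to -0.35) were lowest. With the same mix of clusters Cox7c stood at -0.23 and Cox8a at -0.06, and Cox8a stood at -0.07 with every cell weighted equally. Cox4i1, the regulatory subunit with the most UMIs of the complex, had 11740 in Selinexor and 12651 in DMSO, a ratio of 0.04 (0.00 to 0.08) that turned negative under either other scaling. Cox7c shares 74.1% of the 50-base words at its transcript end with other genes.

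Complex V summed to 6793 CPM in Selinexor and 7556 CPM in DMSO (log2 -0.15, -0.17 to -0.14), with 15 of 17 members below 0. Atp5f1, of the peripheral stalk, was lowest, with 4799 UMIs in Selinexor and 6862 in DMSO (-0.37, -0.42 to -0.32). Atp5e, of the central stalk and with the most UMIs, had 9072 and 11419 (-0.18). Atp5l, a membrane subunit, was highest (9090 and 9666 UMIs, 0.06, but below 0 under either other scaling and with the same mix of clusters), and 78.6% of its transcript end is shared with other genes. The same count was 98.9% for Atp5g2 and 55.8% for Atp5h, while 51 members shared none.

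The subunits of the same complexes that mitochondrial DNA encodes lay in the opposite direction. Of these 13 genes, 12 were above 0, where 63.9% of all measured genes were, with a median of 0.26. They summed to 30305 CPM in Selinexor and 25270 CPM in DMSO (log2 0.26, 0.26 to 0.27). The extremes were mt-Atp8 of complex V (5102 UMIs in Selinexor and 3970 in DMSO, 0.51) and mt-Nd6 of complex I (192 and 252, -0.23). Nuclear UMIs per mitochondrially encoded UMI were 0.702 in Selinexor and 0.959 in DMSO. By complex this ratio was 0.935 and 1.386 for complex I, 0.665 and 0.936 for complex III, 0.423 and 0.560 for complex IV, and 1.042 and 1.384 for complex V. Cells with 10% or more mitochondrial UMIs had been removed, 22 in Selinexor and 41 in DMSO. With every cell weighted equally the mitochondrially encoded sum had a log2 ratio of 0.08.

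Cells of both libraries were clustered together on genes other than the members, the mitochondrial genes and the ribosomal protein genes, and 7 clusters held at least 30 cells of each library. By marker genes, cluster 4 was early neutrophil-like (137 Selinexor and 205 DMSO cells, led by Ctsg, Elane and Mpo). Cluster 8 was intermediate neutrophil-like (96 and 116, led by Camp) and cluster 5 late neutrophil-like (36 and 249, led by Mmp9 and Cxcr2). Cluster 7 was macrophage-like (55 and 198), and its leading genes include Ccl17, C1qa, C1qb, C1qc and H2-Ab1. Of 9 macrophage markers 7 were at least 2-fold higher there than in other cells, but not Adgre1 or Cd68. Of 8 dendritic cell markers 3 were so as well (Cd209a, Zbtb46 and Itgax). Cluster 0 was late neutrophil-like with few UMIs per cell (701 and 237 cells, median 1064 and 1187 UMIs). Cluster 6 was unnamed and led by cell cycle genes (109 and 161 cells). Cluster 2 (270 and 99 cells) scored highest for late neutrophil markers, but its leading genes Ear6, Retnlg and Ltf belong to 3 marker lists, and it is given by number.

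The members took a lower share of UMIs in Selinexor cells in 6 of the 7 clusters. In the cycling cluster 6 they were 2.42% of gene UMIs in Selinexor and 2.81% in DMSO (log2 -0.22, -0.23 to -0.20). In early neutrophil-like cells they were 2.01% and 2.35% (-0.22, -0.24 to -0.20), and in intermediate neutrophil-like cells 1.39% and 1.58% (-0.19, -0.23 to -0.15). Macrophage-like cells had 2.19% in Selinexor and 2.42% in DMSO (-0.14, -0.17 to -0.12). The low-UMI cluster 0 had 2.35% and 2.57% (-0.13, -0.17 to -0.09). Cluster 2 had 1.04% in Selinexor and 1.03% in DMSO, a ratio of 0.02 with a counting interval of -0.03 to 0.07 that includes 0. The ratio was 0.12 with every cell weighted equally, and -0.30 in the closest cluster once genes were centred per library. The cluster 5 ratio was the lowest, with 1.33% and 1.79% (-0.43, -0.50 to -0.36), but it rests on 36 Selinexor cells and the median of all genes measured there was itself -0.29. The mitochondrially encoded subunits were higher in Selinexor in all 7 clusters, with log2 ratios between 0.19 in cluster 7 and 0.40 in cluster 5.

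**Figure D2:**
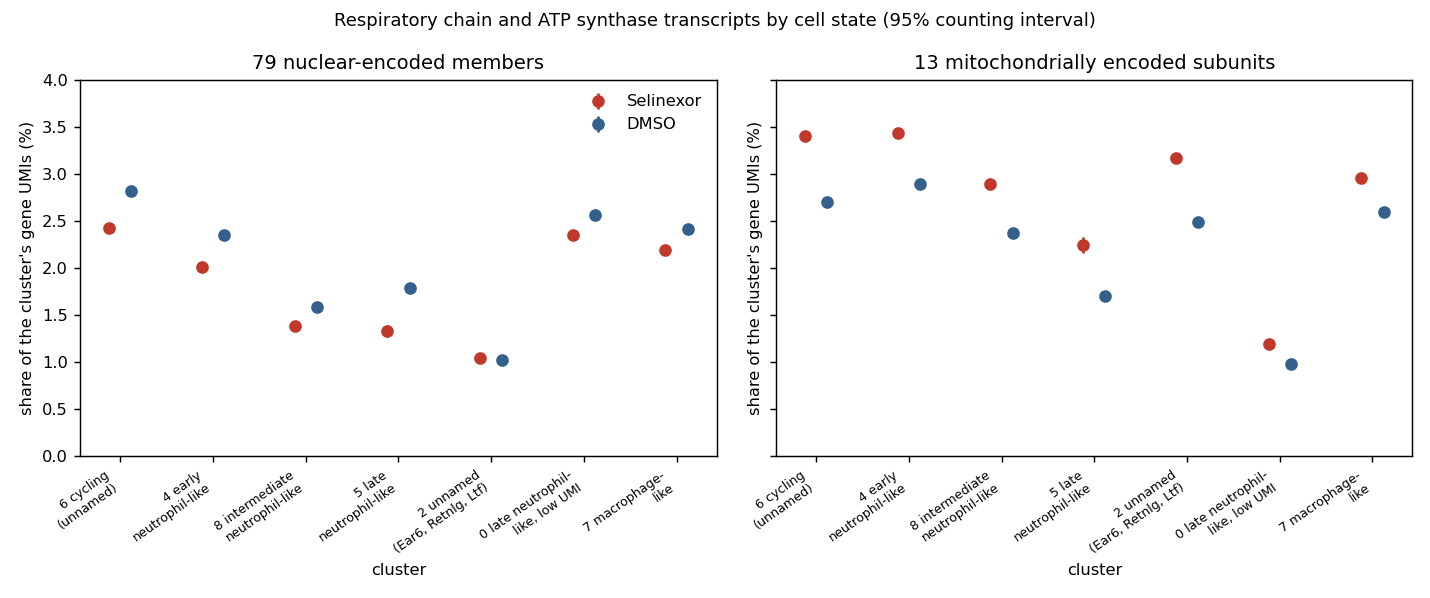
Share of a cluster's gene UMIs (vertical axis, percent) taken by the 79 nuclear-encoded members (left) and the 13 mitochondrially encoded subunits (right) in the 7 compared clusters, Selinexor in red and DMSO in blue, with 95% counting intervals, mostly smaller than the points. On the left Selinexor lies below DMSO in all clusters but cluster 2 (1.04% and 1.03%), and on the right it lies above DMSO in all 7.

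Members at least 1.5-fold lower in Selinexor numbered 1 of 77 in cluster 4 (6.74% of all genes there), 2 of 77 in cluster 6 (5.28%), 1 of 77 in cluster 7 (12.6%), 3 of 70 in cluster 8 (10.4%), 8 of 73 in cluster 0 (8.55%), 1 of 70 in cluster 2 (6.85%) and 32 of 71 in cluster 5 (33.7%). Only members with at least 50 UMIs in the cluster are counted. Complex I was below 0 in all 7 clusters, from -0.49 in cluster 5 to -0.04 in cluster 2. In cluster 2 it held 3231 CPM in Selinexor and 3332 CPM in DMSO, and the direction of all members summed there depended on how cells were grouped. Complex III was 940 CPM in Selinexor and 922 CPM in DMSO in cluster 2, and lower in Selinexor in every other compared cluster. Complex IV ranged from -0.30 in cluster 5 to 0.15 in cluster 2, and complex V from -0.53 in cluster 5 to -0.04 in cluster 2. Complex II, with the fewest UMIs, ranged from -0.55 to 0.06.

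Of the 68 members with at least 50 UMIs in all 7 clusters, 19 were below 0 in each, where 9.76% of all 1834 genes with that many UMIs were. They include 9 of complex I (Ndufa1, Ndufa5, Ndufa7, Ndufa8, Ndufa11, Ndufb6, Ndufb9, Ndufs4 and Ndufs6), Sdhb, Uqcrq, Cox6a1, Cox7a2 and 6 of complex V (Atp5b, Atp5c1, Atp5j, Atp5md, Atp5mpl and Atp5o). Ndufb9 kept between -0.41 and -0.18, and Ndufa1 between -0.45 and -0.19. A single member, Cox7a2l, was above 0 in each, where 3.98% of those genes were.

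**Figure D3:**
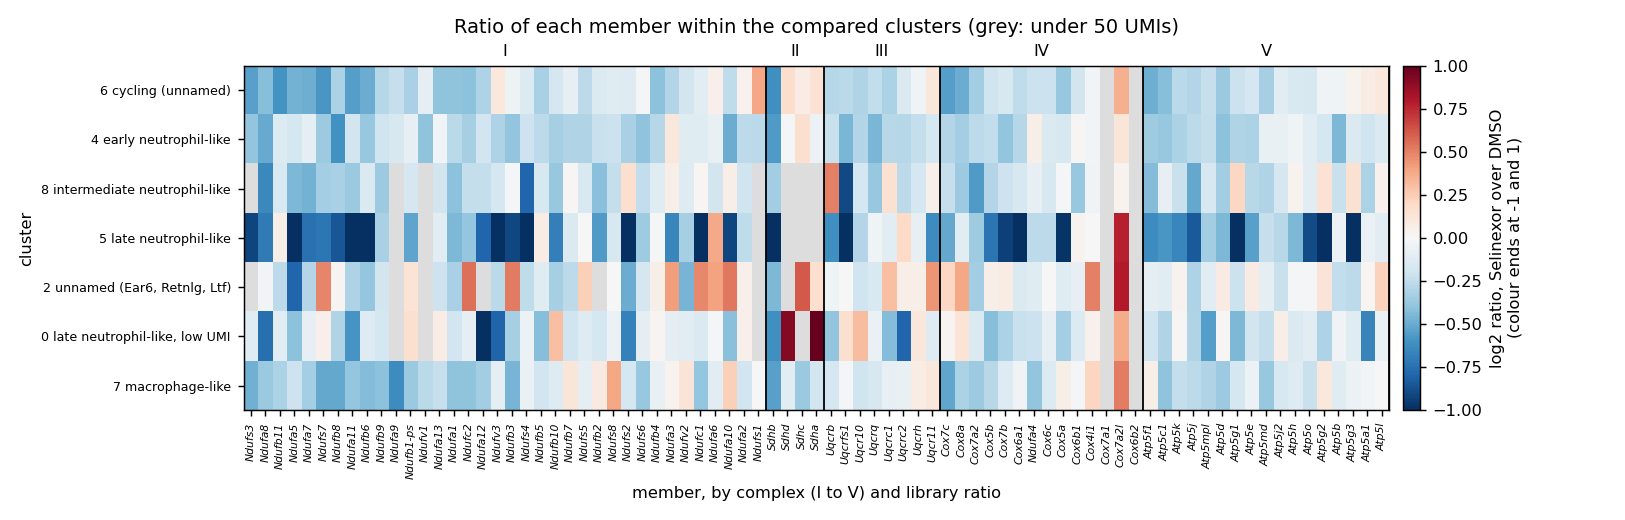
Log2 ratio, Selinexor over DMSO (colour, ending at -1 and 1), of each member (columns, by complex I to V) within the 7 compared clusters (rows). Grey marks members with under 50 UMIs in the cluster. The Cox7a2l column is red in every row (0.04 to 0.79), and the row of cluster 5 holds most of the deep blue.

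Cox7a2l encodes SCAF1, a homolog of the Cox7a subunits that links complexes III and IV into a supercomplex. The gene (mm10 chromosome 17, 83501918 to 83517330, minus strand) had 4012 UMIs (312.4 CPM) in Selinexor and 3377 (237.4 CPM) in DMSO, a log2 ratio of 0.39 (0.33 to 0.46), and it stayed between 0.26 and 0.46 under all 12 other settings. Its homolog Cox7a2, the usual subunit of complex IV outside muscle, had 5699 UMIs in Selinexor and 8007 in DMSO (-0.34, -0.39 to -0.29). Among the UMIs of Cox7a1, Cox7a2 and Cox7a2l, Cox7a2l thus held 41.0% (40.0 to 41.9, Clopper-Pearson) in Selinexor and 29.4% (28.6 to 30.3) in DMSO. Its share was higher in Selinexor in each compared cluster: 58.3% and 43.7% in macrophage-like cells, 53.5% and 34.4% in cluster 2, 34.1% and 24.2% in the cycling cluster 6, and 25.4% and 20.8% in early neutrophil-like cells. The level of Cox7a2l itself was 517.4 CPM in Selinexor and 362.2 CPM in DMSO in macrophage-like cells (0.51, 0.33 to 0.69). In cluster 8 it was 205.4 and 200.1 CPM (0.04), with an interval of -0.31 to 0.39 that includes 0. The intervals of clusters 0 and 4 include 0 as well. Neither 3′ end shares a 50-base word with another gene.

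**Figure D4:**
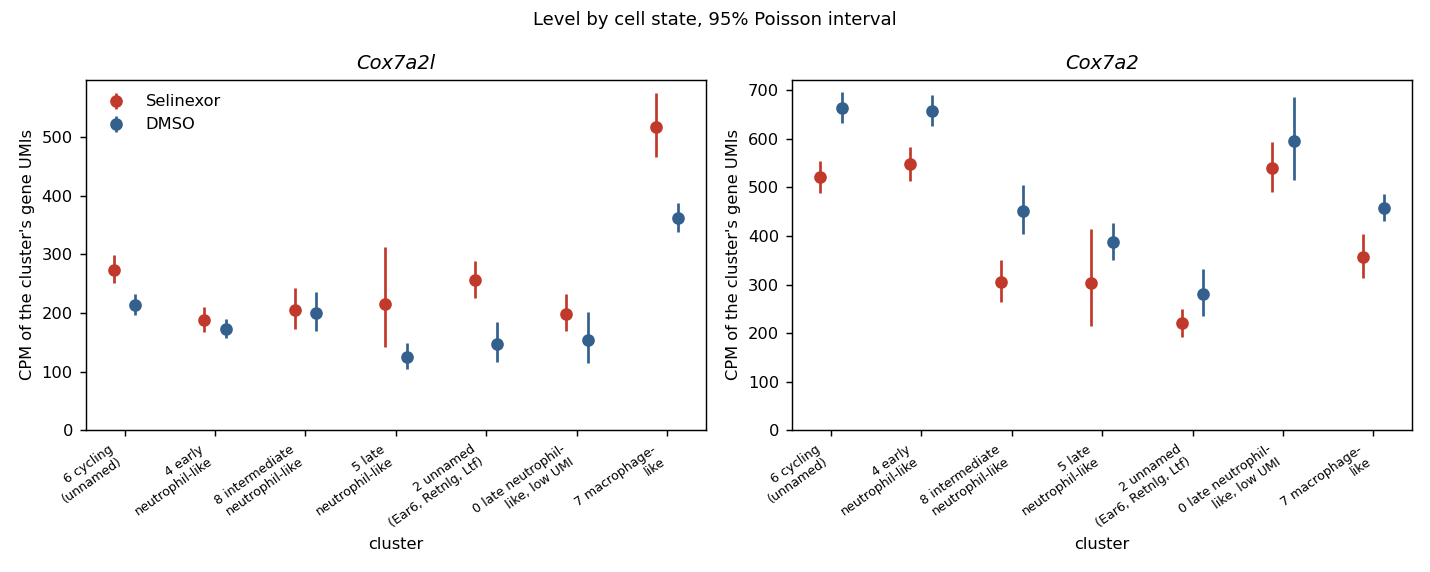
CPM of Cox7a2l (left) and Cox7a2 (right) in the 7 compared clusters, Selinexor in red and DMSO in blue, with 95% Poisson intervals. Cox7a2l is highest in macrophage-like cells (517.4 CPM in Selinexor and 362.2 in DMSO), and Cox7a2 is lower in Selinexor in every cluster.

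Tissue-restricted isoforms were scarce in both libraries. Cox6b2, a testis isoform, was the member past the 1.5-fold line, with 67 UMIs (5.22 CPM) in Selinexor and 24 (1.69 CPM) in DMSO, and it held 0.930% of Cox6b UMIs in Selinexor and 0.291% in DMSO. Early neutrophil-like cells held 33 of the 67 Selinexor and 13 of the 24 DMSO UMIs. Cox4i2, an isoform of hypoxic and lung cells, had 7 UMIs in Selinexor and 31 in DMSO. The muscle isoform Cox7a1 had 84 and 87 UMIs, and Cox6a2, also of muscle, 21 and 19. Cox8b and Cox8c had 0 UMIs, for which the one-sided 95% limit is 3 counts per library. The genes Atp5g1, Atp5g2 and Atp5g3 encode the same mature ring subunit of ATP synthase. They held 47.3%, 27.5% and 25.2% of their UMIs in Selinexor, and 50.2%, 26.2% and 23.6% in DMSO.

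Ndufa4 has a homolog, AA467197 (NMES1), which the symbol pattern leaves out and which can replace it in complex IV in inflamed cells. Ndufa4 had 4436 UMIs in Selinexor and 5596 in DMSO (log2 -0.19), and AA467197 had 3298 and 4003 (-0.13), so that AA467197 held 42.6% and 41.7% of their UMIs. This share varied far more between cell states than between libraries. It was 6.96% in Selinexor and 10.5% in DMSO in early neutrophil-like cells, 38.3% and 48.2% in intermediate ones, and 69.0% and 61.9% in macrophage-like cells.

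Within each library the members also differed between the neutrophil-like clusters, with ratios on both sides of 0. Against early neutrophil-like cells of the same library, all members summed were lower in intermediate cells by a log2 ratio of -0.54 (-0.57 to -0.51) in Selinexor and -0.57 (-0.60 to -0.54) in DMSO. Of 77 members, 76 were below 0 in intermediate cells in both libraries, where 63.9% of all 4174 genes were. Cox7a2l was the exception, at 0.13 in Selinexor and 0.21 in DMSO, both with intervals that include 0. In the late neutrophil-like cluster 5 the summed ratio was -0.60 (-0.67 to -0.53) in Selinexor and -0.39 (-0.42 to -0.37) in DMSO, with 60 of 76 members below 0 in both, where 54.1% of all genes were. The low-UMI cluster 0, also late neutrophil-like, lay on the other side, at 0.22 (0.19 to 0.25) in Selinexor and 0.13 (0.09 to 0.16) in DMSO, with 27 of 77 members below 0 in both, where 29.2% of all genes were. In cluster 2 the ratio was -0.95 (-0.98 to -0.92) in Selinexor and -1.20 (-1.24 to -1.16) in DMSO, with 75 of 77 members below 0 in both, where 42.9% of all genes were. Atp5g1 reached -2.88 in Selinexor and -2.97 in DMSO there. The median of all genes was -0.42 in Selinexor and -0.41 in DMSO for intermediate cells, and -0.49 and -0.23 for cluster 5. It was 0.39 and 0.32 for cluster 0, and 0.08 and -0.04 for cluster 2. In the same order the median member stood at -0.59 and -0.63, -0.66 and -0.48, 0.17 and 0.01, and -1.03 and -1.17. The median member lay below the median of all genes in each comparison. Across the 77 members the stage ratios of the libraries had a Spearman correlation of 0.643 for intermediate cells and 0.774 for cluster 2, as a description across genes that share cells and depth.

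Clusters 1, 3 and 9 held under 30 cells of 1 library and allow levels only. Members were 2.31% of gene UMIs in the 346 Selinexor cells of the monocyte-like cluster 3, whose leading genes include Fn1 and Mrc1, and 2.53% in its 19 DMSO cells. They were 2.51% in the 150 Selinexor cells and 2.41% in the 26 DMSO cells of the unnamed cluster 9. Cluster 1, unnamed, whose leading genes include Csta3 and Dmkn, had 1.73% in 11 Selinexor cells and 2.75% in 361 DMSO cells.

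Depth per cell differed between the libraries, and all members summed were lower in Selinexor at each depth. Cell states were not matched within a depth. Cells under 2000 UMIs had 2.23% in Selinexor and 2.48% in DMSO (log2 -0.15). In those cells complexes I, IV and V stood at -0.17, -0.11 and -0.22. Complex II stood at 0.02 (-0.33 to 0.38) and complex III at -0.002 (-0.12 to 0.12). From 2000 to 5000 UMIs the shares were 1.30% and 1.76% (-0.44), from 5000 to 10000 1.70% and 2.11% (-0.31), and above 10000 2.32% and 2.63% (-0.18). Among cells of at least 2000 UMIs the median cell had 1.89% in Selinexor (1184 cells, 10th to 90th percentile 0.908% to 2.83%) and 2.30% in DMSO (1429 cells, 1.17% to 3.26%). The distributions overlapped over most of their range.

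Transcript length moved with the ratio across the whole library. Among the other protein-coding genes with at least 1000 UMIs, length and ratio had a Spearman correlation of 0.486 (3221 genes), and among the members of 0.096 (78 with a coding transcript). For transcripts of 600 to under 1000 bases the median log2 ratio was -0.19 for 27 members and -0.17 for 287 other genes, and 96.3% and 79.4% lay below 0. Under 600 bases the medians were -0.18 for 19 members and -0.12 for 75 other genes. From 1000 to under 2000 bases they were -0.24 for 24 members and -0.09 for 830 other genes, and from 2000 bases -0.04 for 8 members and 0.17 for 2029 other genes. Members are thus closer to other abundant genes with short transcripts than to the median of all genes. The part of length in the ratios of the members was not tested.

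**Figure D5:**
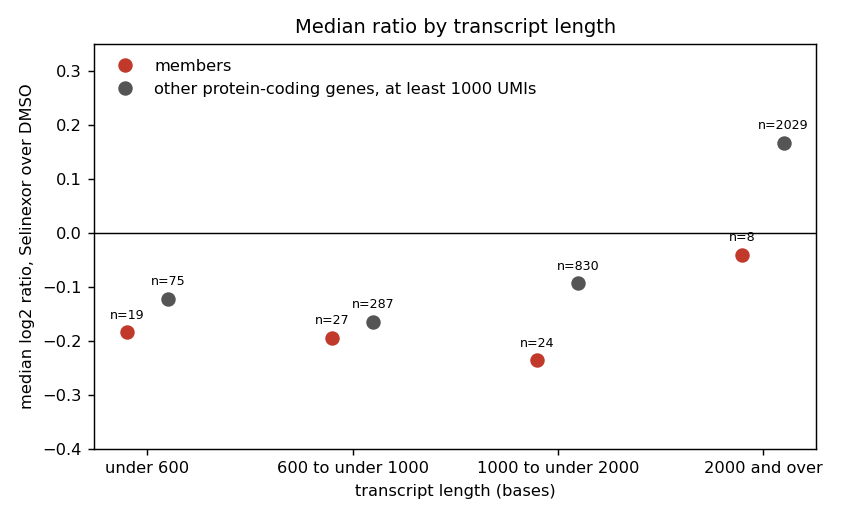
Median log2 ratio, Selinexor over DMSO (vertical axis), by transcript length (horizontal axis), for the members (red) and other protein-coding genes with at least 1000 UMIs (grey), with the number of genes above each point. Both sets lie below 0 under 2000 bases, and from 2000 bases the other genes stand at 0.17.

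Genes around the respiratory chain did not form 1 pattern. Mitochondrial ribosomal proteins, which translate the mitochondrially encoded subunits, had a median of -0.13, with 63 of 78 below 0 and 2 at least 1.5-fold lower (36.1% and 3.88% of all measured genes), and Mrpl52 was lowest (3420 UMIs in Selinexor and 5886 in DMSO, -0.63). The 9 other subunits and carriers had a median of -0.21, with Etfb at -0.34 and Etfdh, both of the electron transfer from fatty acid oxidation, at 0.44. Of 36 assembly factors (median -0.10), 2 were at least 1.5-fold lower (3.88% of all measured genes), and Ndufaf3, needed to build complex I, was lowest (263 and 540 UMIs, -0.86). The 16 genes of the TCA cycle and pyruvate dehydrogenase had a median of 0.12 and 0 members past 1.5-fold in either direction, from Suclg1 at -0.44 to Dlst at 0.49. Coenzyme Q synthesis had a median of -0.10 over 12 genes, with Coq10a at 0.60. Regulators of mitochondrial biogenesis stood at a median of 0.36, with 3 of 13 at least 1.5-fold higher (9.84% of all measured genes), led by the coactivator Ppargc1b (175 UMIs in Selinexor and 99 in DMSO, 0.88, 0.61 to 1.34). Of the 13, 2 were below 0 (36.1% of all measured genes), and Gabpb1 was lowest at -0.37. The list of regulators also holds Hif1a and Myc.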

How the data were processed

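Raw UMI counts per gene and cell were deposited by the authors for 2 libraries, made with Cell Ranger 6.1.2 against mm10, per the submitters' processing notes. The annotation release and the rule for calling cells are not stated by the labels or files. Per the labels' protocols, cells carried feature barcodes and suspensions were pooled before capture. Tag counts were kept out of gene totals, and every barcode of a library had the same most abundant tag.

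Cells needed a minimum of 200 genes, and mitochondrial UMIs under 10%, which kept 1967 of 1989 in Selinexor and 1743 of 1784 in DMSO. No doublet caller was run, and a setting without the 5% of cells with the most UMIs stands in for it. Counts were summed per library or cluster and scaled to CPM, with a pseudocount of 1 CPM in ratios. Ratios have exact conditional binomial intervals, sums Poisson intervals and shares Clopper-Pearson intervals at 95%, for counting error only. The interval is that of the plain ratio, without the pseudocount. On independent Poisson counts simulated for the Selinexor against DMSO comparison (10397 genes, 200 of them changed), the interval held the true ratio for 95.6% of genes. Such counts follow the error that the interval assumes. The figure thus checks the calculation, and not the variation between cells or cultures.

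Clustering used 2000 variable genes, 30 principal components, 15 neighbours and Leiden resolution 1.0 (leidenalg 0.10.2, scikit-learn 1.9.0). Clusters were named by their best-scoring marker class, where 3 or more of its markers were at least 2-fold higher than in other cells. Cluster 2 met this rule for late neutrophil markers, but is given by number because its leading genes belong to 3 marker lists. Scaling factors came from edgeR 4.0.16. Transcript lengths came from GENCODE M21, which shares the build, and promoters from RefSeq GRCm38.p6. Members and lists were chosen with earlier results of these data known. Genes named are, per complex, those with the most UMIs and the highest and lowest ratios, those past 1.5-fold, and all isoforms. Of the same extremes of the other lists, only a part is named. Further genes, such as Ndufa8, Cox8a and AA467197, and the promoters shown, were chosen after their values were seen. No test was run, since each group is 1 library.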

Additional observations from a re-analysis of the deposited data

How the results depend on the processing

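No paired analysis was possible because each group holds 1 library. With 1 library per group, leaving out a replicate was not possible either. Cells of at least 2000 UMIs numbered 1184 in Selinexor and 1429 in DMSO.

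No summed ratio of the members or of a complex, taken over all cells that a setting uses, changed sign under any setting run. Members below 0 numbered 66 to 74, where 34.4% to 50.0% of all genes were below 0. The 74 came under TMM and median-of-ratios scaling, where 49.6% and 50.0% of all genes were below 0, against 36.1% in the main setting. TMM and median-of-ratios scaling moved the median of all genes by -0.12 and -0.13 and the members with it. Under TMM scaling the member median was -0.33, the sum of all members -0.32, complexes I to V -0.38, -0.22, -0.28, -0.32 and -0.29, the mitochondrially encoded sum 0.13, and 4 members were at least 1.5-fold lower (6.22% of all genes). Under median-of-ratios scaling these values were -0.33, -0.33, -0.39, -0.22, -0.29, -0.32, -0.29, 0.12 and 4 (6.33%). With every cell weighted equally the sum was -0.16, complexes I, III, IV and V -0.19, -0.11, -0.15 and -0.17, and the mitochondrially encoded sum 0.076. Thinned to 2000 UMIs per cell, the median was -0.27, the sum -0.24, the same complexes -0.32, -0.21, -0.22 and -0.21, the mitochondrially encoded sum 0.34, and 1 member was 1.5-fold lower (8.0% of all genes). With the same mix of clusters in both libraries the sum was -0.17, these complexes -0.21, -0.12, -0.12 and -0.20, the mitochondrially encoded sum 0.29, the median of all genes 0.01, and 1 member was 1.5-fold lower (7.61%). Without cells holding Mki67 or Top2a, complexes III, IV and V were -0.10, -0.15 and -0.17, and 2 members were 1.5-fold lower (5.06%). Without the 5% of cells with the most UMIs the sum was -0.20, complex V -0.17 and the mitochondrially encoded sum 0.26. The stricter cell filter (minimum of 1000 genes, mitochondrial UMIs under 5%) gave a mitochondrially encoded sum of 0.29. A minimum of 20 UMIs added 1 member 1.5-fold lower (Cox4i2; 4.26% of all genes), and a minimum of 200 left 0 members 1.5-fold higher, since Cox6b2 falls under it. Without the low-UMI cluster 0, a setting chosen after seeing the data, the sum was -0.20, complex I -0.27 and the mitochondrially encoded sum 0.30.

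Within clusters, all members in cluster 2 stood at 0.12 with cells weighted equally and 0.075 when thinned, and at -0.30 in the closest cluster after centring each gene per library, so the direction there depends on how cells are grouped. That centred cluster is also the closest to cluster 8 (-0.30). Centring gave -0.29 for cluster 4 and -0.22 for cluster 5. Cluster 5 was -0.34 with cells weighted equally and -0.55 when thinned. Thinning gave -0.28 for cluster 0 and -0.18 for cluster 7. The causes of these shifts were not tested.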
